A study of Mus musculus with 10 samples.

Results

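The BCL2 family holds the proteins that decide, at the mitochondrial outer membrane, whether a stressed cell lives or dies. The 10 genes described here were chosen by symbol from the 24421 genes of the count table, with their role in the family and, for some, their regulation by p53 as the reason. They are the survival genes Bcl2, Bcl2l1 (BCL-XL) and Mcl1, the pore-forming effectors Bax and Bak1, and the BH3-only genes Bbc3 (PUMA), Pmaip1 (NOXA), Bcl2l11 (BIM), Bid and Bad. All 10 were in the table and all 10 passed the filter on low counts that left 11846 genes for testing.

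Survival proteins hold BAX and BAK in check, BH3-only proteins neutralise the survival proteins or engage BAX and BAK directly, and active BAX and BAK open the outer membrane so that cytochrome c reaches the cytosol and starts the caspase cascade. Maturing erythroid cells depend on erythropoietin, whose receptor signals through JAK2 and STAT5, and BCL-XL is the survival protein best known for keeping late erythroid cells alive. p53, the protein of Trp53, can raise transcription of Bax, Bbc3 and Pmaip1.

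RNA-seq was performed on R2 cells, the CD71+Ter119+ erythroid progenitors of the bone marrow, sorted 8 weeks after transplant. The genotypes were compared, namely Ddx41+/+Trp53+/+ (3 mice), Ddx41+/-Trp53+/+ (2 mice), Ddx41+/+Trp53+/- (3 mice) and Ddx41+/-Trp53+/- (2 mice), with 1 mouse per library. In all groups the donor marrow carried Rosa-CreERT2, the recipients were lethally irradiated BoyJ mice, and tamoxifen (1 mg a day over 2 rounds of 5 days) was given to excise the floxed Ddx41 allele where there was one. The Rosa26 promoter is not specific to a cell type, so excision was limited to cells from the donor marrow but not to erythroid cells. The Trp53 knockout allele was present in the donor from the germline, and cells of the recipient may remain in the sorted gate.

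The libraries held 7866648 to 20283930 counts. Ddx41 mRNA was lower in the 4 Ddx41+/- mice, at 12.5 to 16.5 CPM (counts scaled to library size, with TMM factors), than in the 6 Ddx41+/+ mice, at 21.9 to 26.6 CPM, and it fell over both Trp53 genotypes by 0.70 on the log2 scale (SE 0.11, adjusted p = 0.0173). Trp53 mRNA fell by 0.48 on the same scale (SE 0.07, adjusted p = 0.00355), from 57.4 to 68.1 CPM in the Trp53+/+ mice down to 40.3 to 46.2 CPM in the Trp53+/- mice. Erythroid markers led the libraries, with 9 markers summing to 43137 to 49010 CPM and Slc4a1 alone at 5207 to 6238 CPM per kilobase. The globin genes among them were the exception, since Hbb-bt was listed at 0 and Hba-a1 reached no more than 1.57 CPM per kilobase. How the counting handled reads that match several genes is not given in the sources used here. A value near 0 for genes with close copies, such as the globins, therefore need not mean that the RNA was absent. Neutrophil markers summed to 4853 to 8300 CPM, macrophage markers to 237 to 563 CPM and T cell markers to 18.5 to 26.8 CPM. B cell markers moved with genotype, their 9 measured genes summing to 210 to 354 CPM in the Ddx41+/+Trp53+/+ mice and to 357 to 510 CPM in the other genotypes, and no marker of these 4 lists was at 0 in any library.

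In the GENCODE M21 annotation of GRCm38 (mm10), the survival genes lie at chr1:106538178-106714274 (Bcl2, minus strand), chr2:152780668-152831728 (Bcl2l1, minus strand) and chr3:95658788-95663176 (Mcl1, plus strand). The effectors lie at chr7:45461697-45466898 (Bax, minus strand) and chr17:27019810-27029009 (Bak1, minus strand). Of the BH3-only genes, Bbc3 is at chr7:16308393-16318205, Bcl2l11 at chr2:128126038-128162547 and Bad at chr19:6941861-6951899, all on the plus strand, and Bid is at chr6:120891930-120916853 on the minus strand.

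Promoter sequence was examined for the members because p53, STAT5, GATA1, FOXO3 and MYC are known regulators of family genes. The windows are the 250 bases before each annotated start, from RefSeq on GRCm38.p6, and they covered 9 of the 10 members with 15 windows. No window of Pmaip1 was used, so the counts of motifs do not cover its promoter. Both strands were searched for the p53 decamer (by its name, the short unit that p53 binds), the GATA motif AGATAA, the STAT motif TTCNNNGAA, the forkhead motif GTAAACA and the E-box CACGTG. The 6 matches found did not overlap one another. The windows printed are the 3 that hold a p53 decamer or a forkhead motif, and capitals mark the matches. The Bax window, chr7:45466899-45467148 on the minus strand, holds the decamer at -201 to -192 from the start and an E-box at -9 to -4. The Bbc3 window, chr7:16310011-16310260 on the plus strand, is that of the second annotated start and holds the forkhead motif in reverse at -167 to -161. The Bcl2l11 window, chr2:128125788-128126037 on the plus strand, holds it at -227 to -221.
Bax: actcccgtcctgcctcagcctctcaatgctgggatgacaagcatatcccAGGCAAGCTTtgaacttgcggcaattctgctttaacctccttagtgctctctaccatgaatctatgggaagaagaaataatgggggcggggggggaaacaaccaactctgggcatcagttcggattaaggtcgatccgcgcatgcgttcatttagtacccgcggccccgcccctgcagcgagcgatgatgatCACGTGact
Bbc3: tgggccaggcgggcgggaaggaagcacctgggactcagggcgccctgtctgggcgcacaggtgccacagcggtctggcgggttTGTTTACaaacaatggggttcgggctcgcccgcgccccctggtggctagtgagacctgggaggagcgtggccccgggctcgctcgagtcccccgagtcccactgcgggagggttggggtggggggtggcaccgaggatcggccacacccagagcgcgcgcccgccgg
Bcl2l11: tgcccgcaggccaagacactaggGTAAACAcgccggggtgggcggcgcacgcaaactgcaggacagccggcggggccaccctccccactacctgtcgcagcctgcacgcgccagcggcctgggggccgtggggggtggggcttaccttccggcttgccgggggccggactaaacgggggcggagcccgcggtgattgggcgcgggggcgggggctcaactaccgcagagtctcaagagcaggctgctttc
The decamer was in 1 of the 15 member windows and in 7.13% of all 32851 promoter windows of that length. The forkhead motif was in 2 of 15 against 3.17%, the E-box in 2 of 15 against 6.02%, and the GATA motif in 1 of 15, a Bcl2l1 window that lies in annotated exon, against 9.99%. The STAT motif was in 0 of 15 against 7.02%, and a complete p53 site, which is a pair of decamers at most 13 bases apart, was in 0 of 15 against 0.0639%. These matches describe the letters of the windows and were not tested as binding sites.

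The survival gene Bcl2l1 was the most abundant member. Per kilobase of exon it averaged 159.7 CPM (SD 10.7, n = 10 mice), followed by Mcl1 at 96.9 CPM (SD 4.30), and the ranges of these genes did not overlap each other or any other member's. Next came Bak1 at 22.97 CPM per kilobase (SD 3.04), Bbc3 at 17.8 (SD 5.73) and Bax at 17.7 (SD 2.86), whose ranges overlapped, with Bbc3 above Bax in 3 of 10 mice. The other BH3-only genes were lower, with Bid at 4.59 CPM per kilobase (SD 0.90), Bcl2l11 at 3.49 (SD 0.14), Bad at 2.99 (SD 0.71) and Pmaip1 at 2.18 (SD 0.63). The ranges of Bcl2l11 and Bad overlapped, as did those of Bad and Pmaip1. Bcl2 closed the order at 0.373 CPM per kilobase (SD 0.14), below all others in every mouse.

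**Figure D1:**
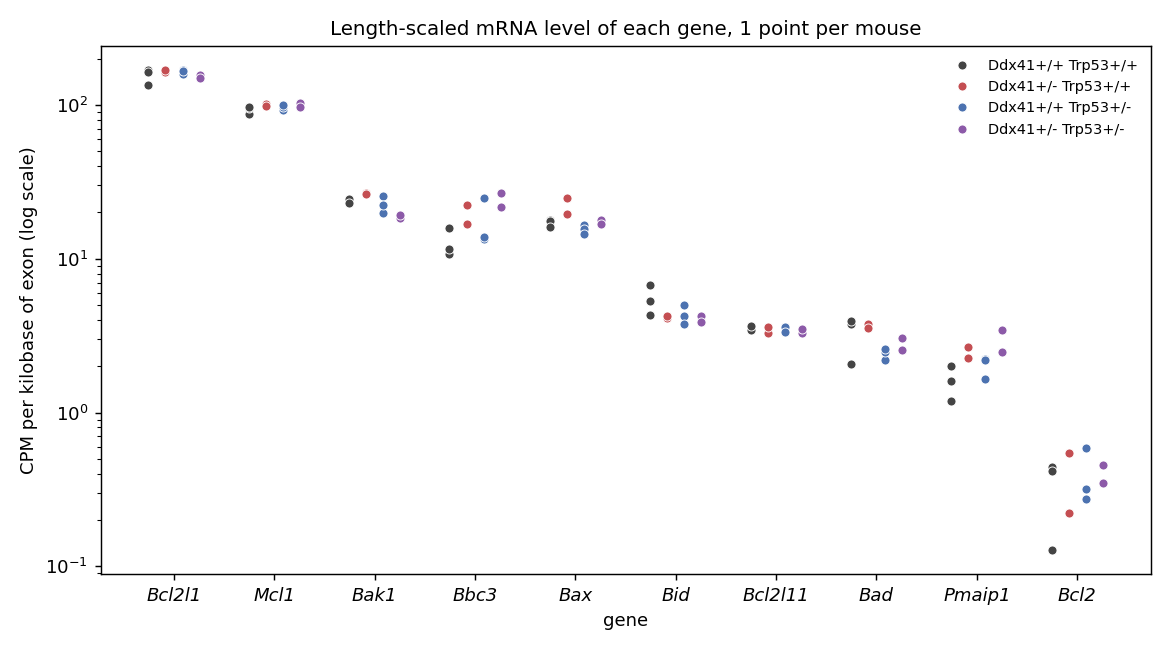
Level of each of the 10 genes in CPM per kilobase of exon (log axis), 1 point per mouse, coloured by genotype. Bcl2l1 (134 to 169) and Mcl1 (87.9 to 103) stand above the rest and Bcl2 (0.127 to 0.585) below.

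The members differed in how steady they were between mice. Bcl2l11 varied least, with a coefficient of variation of 3.98% over the 10 mice, no more than the 4.99% that counting alone would give. Mcl1 (4.44%) and Bcl2l1 (6.70%) were also steady, against a median of 14.6% over the 11846 tested genes. At the other end, Bbc3 varied by 32.2% with 4.31% from counting, Pmaip1 by 29.0% with 10.7% from counting, and Bcl2 by 38.4% with 13.9% from counting. Bcl2 rested on 16 to 92 counts per library and Pmaip1 on 45 to 162, so their single values are the least precise of the family.

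No member passed the test in any comparison of genotypes. The test was edgeR's quasi-likelihood test with Benjamini-Hochberg adjustment over all 11846 genes at 0.05. For the effect of Ddx41 heterozygosity with Trp53+/+, 0 of 10 members were called against 0.625% of all genes, and 3 members had an unadjusted p below 0.05, all higher (Bax, Bbc3 and Pmaip1), against 5.52% of all genes in that direction. For the effect of Ddx41 heterozygosity with Trp53+/-, 0 of 10 were called against 0.0422%, and 1 member (Bak1, lower) had an unadjusted p below 0.05 against 1.6% in that direction. For Trp53 heterozygosity with Ddx41+/+, 0 of 10 were called against 0.988%, and 0 had an unadjusted p below 0.05 against 9.44%. For Trp53 heterozygosity with Ddx41+/-, 0 of 10 were called against 0.177%, and 2 (Bak1 and Bax, both lower) had an unadjusted p below 0.05 against 2.63%. For Ddx41 heterozygosity over both Trp53 genotypes, 0 of 10 were called against 0.144% of all genes, and 3 (Bax, Bbc3 and Pmaip1, all higher) had an unadjusted p below 0.05 against 5.06%. For Trp53 heterozygosity over both Ddx41 genotypes, 0 of 10 were called against 0.439%, and 1 higher (Bbc3) and 3 lower (Bax, Bak1 and Bad) had an unadjusted p below 0.05 against 6.18% and 5.01%. In the test of the difference between the Ddx41 effects in the Trp53 genotypes, 0 of 10 were called against 0.0675%, and 1 (Bak1, lower) had an unadjusted p below 0.05 against 2.7%. By DESeq2, 1 member (Bak1) was called for Trp53 heterozygosity with Ddx41+/- and 0 in the other comparisons. The comparisons share groups of mice with each other, so their values are given side by side and not as independent evidence.

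The values of several members separated the groups. With Trp53+/+, 5 members were higher and 1 lower in both Ddx41+/- mice than in all 3 Ddx41+/+ mice, beside 12.9% and 12.1% of all genes. The higher members were Mcl1, Bax, Bak1, Bbc3 and Pmaip1, and the lower one was Bid. Mcl1 and Bid separated only narrowly. The lowest Ddx41+/- and highest Ddx41+/+ values of Mcl1 were 334.0 and 332.8 CPM. For Bid the highest Ddx41+/- and lowest Ddx41+/+ values were 14.99 and 15.21 CPM. With Trp53+/-, 2 members were higher (Bax and Pmaip1) and 2 lower (Bcl2l1 and Bak1) without overlap, against 9.23% and 10.8% of all genes. Between the Trp53 genotypes, 0 members separated the Ddx41+/+ mice, against 14.1% of genes, and 4 (Bcl2l1, Bax, Bak1 and Bad) were lower without overlap in the Ddx41+/-Trp53+/- mice than in the Ddx41+/-Trp53+/+ mice, against 18.5% of genes. The median log2 fold change over the 10 members was 0.17 for Ddx41 heterozygosity with Trp53+/+ and 0.03 with Trp53+/-, where the median of all genes was 0.0010 and -0.0050. For Trp53 heterozygosity the medians were 0.01 with Ddx41+/+ and -0.02 with Ddx41+/-, beside 0.00049 and -0.0045 for all genes. These are bulk libraries of a sorted gate, in which fewer cells expressing a gene and less RNA per cell cannot be told apart. All 9 B cell markers had log2 fold changes above 0 for Ddx41 heterozygosity with Trp53+/+ (median 1.04). The same held for Trp53 heterozygosity with Ddx41+/+ (median 1.25). By edgeR 3 (Ly6d, Ebf1 and Cd79a) were called in the first comparison and 6 in the second, and by DESeq2 5 and 7. The part of these markers in the members' values was not tested. Of 8 macrophage markers, 0 were called in any comparison by edgeR or DESeq2, and all 8 were lower at an unadjusted p below 0.05 for Trp53 heterozygosity with Ddx41+/+. For Ddx41 heterozygosity with Trp53+/- all 8 had values above 0 (median 0.53), with 5 at an unadjusted p below 0.05 and 6 not overlapping, and their part in the members' values was not tested either. Of 6 early progenitor markers, Myb rose with Trp53 heterozygosity in the Ddx41+/+ mice (log2 fold change 0.84, SE 0.16, adjusted p = 0.0159). Of 3 tested megakaryocyte markers, 0 were called in any comparison by edgeR or DESeq2, with at most 1 at an unadjusted p below 0.05.

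**Figure D2:**
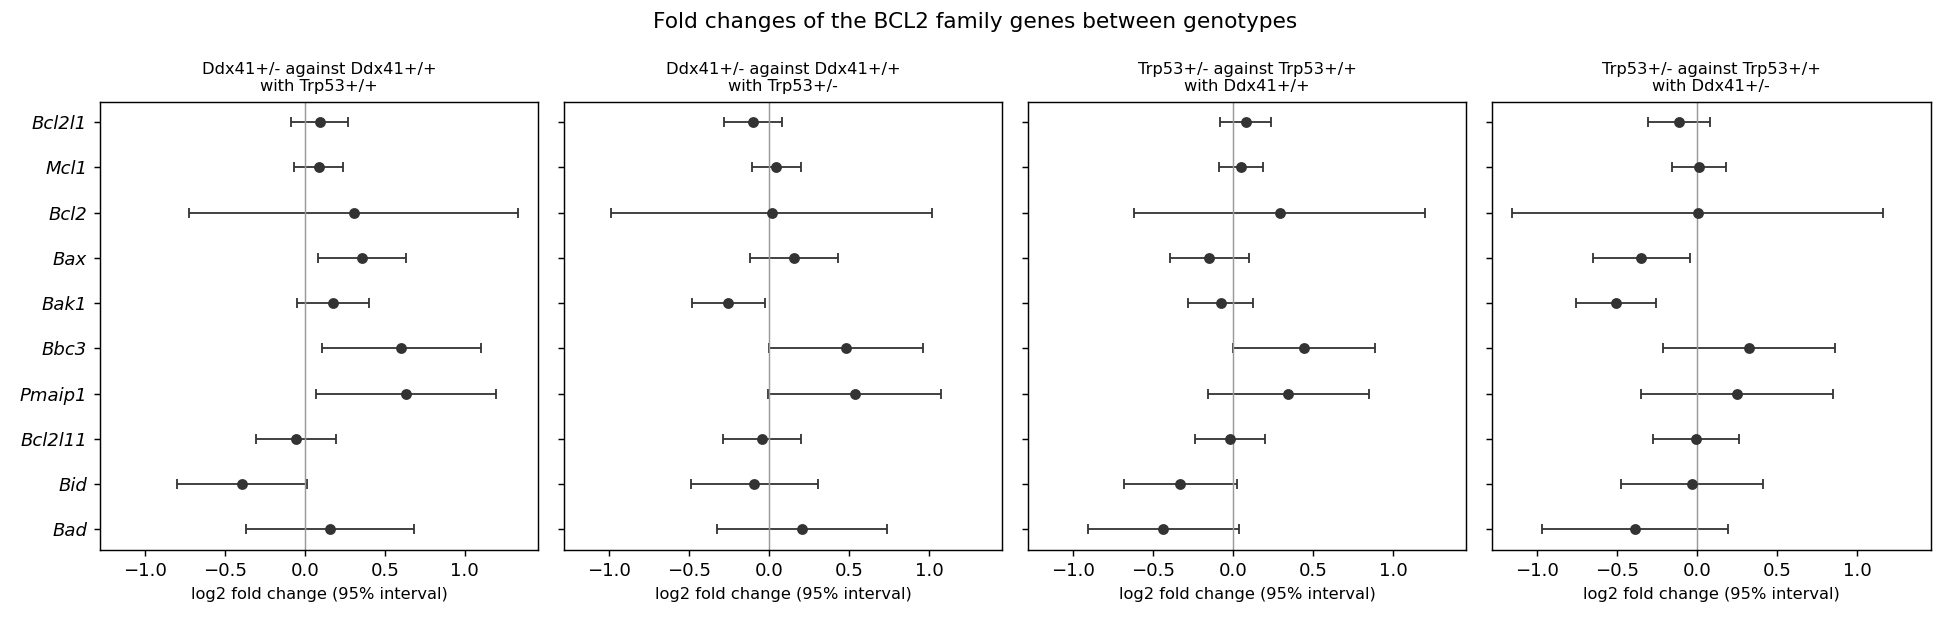
Log2 fold change of each member (point) with its 95% interval (bar) in the 4 comparisons of single genotypes. The intervals of Bcl2l1, Mcl1 and Bcl2l11 span 0 in all 4 panels and that of Bak1 lies below 0 in both panels that involve the Ddx41+/-Trp53+/- mice.

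Among the survival genes, Bcl2l1 was measured at 771, 616 and 754 CPM in the Ddx41+/+Trp53+/+ mice, 747 and 774 CPM in the Ddx41+/-Trp53+/+ mice, 731, 770 and 757 CPM in the Ddx41+/+Trp53+/- mice, and 716 and 689 CPM in the Ddx41+/-Trp53+/- mice. The lowest value belonged to 1 Ddx41+/+Trp53+/+ mouse, and the double heterozygotes lay below both Ddx41+/-Trp53+/+ mice and all 3 Ddx41+/+Trp53+/- mice. Its log2 fold change for Ddx41 heterozygosity was 0.09 with Trp53+/+ (95% interval -0.09 to 0.27, adjusted p = 0.801) and -0.10 with Trp53+/- (-0.28 to 0.08, unadjusted p = 0.249), a difference of -0.19 (SE 0.12), and -0.0036 (SE 0.06) over both. For Trp53 heterozygosity with Ddx41+/- it was -0.12 (SE 0.09).

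Mcl1, whose protein is short-lived and is the main target of NOXA, was at 300.4, 325 and 333 CPM in the Ddx41+/+Trp53+/+ mice, 344 and 334 CPM in the Ddx41+/-Trp53+/+ mice, 317, 332 and 342 CPM in the Ddx41+/+Trp53+/- mice, and 353 and 330 CPM in the Ddx41+/-Trp53+/- mice. All 10 values lay within 300.4 to 353 CPM. The interval of its log2 fold change was -0.07 to 0.24 for Ddx41 heterozygosity with Trp53+/+ and -0.11 to 0.20 with Trp53+/-, and for Trp53 heterozygosity it was -0.09 to 0.19 with Ddx41+/+ and -0.16 to 0.18 with Ddx41+/-. Over both genotypes of the other gene Mcl1 stood at 0.07 (SE 0.05) for Ddx41 and 0.03 (SE 0.05) for Trp53, and the difference between the Ddx41 effects was -0.04 (SE 0.10).

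Bcl2, the founding member of the family, gave 4.06, 1.17 and 3.80 CPM in the Ddx41+/+Trp53+/+ mice, 4.99 and 2.03 CPM in the Ddx41+/-Trp53+/+ mice, 2.50, 2.90 and 5.36 CPM in the Ddx41+/+Trp53+/- mice, and 4.18 and 3.20 CPM in the Ddx41+/-Trp53+/- mice. The spread within each genotype covered the differences between them, and the group ranges overlapped in all comparisons. An annotated transcript on the opposite strand, D630008O14Rik, overlaps its exons. The 95% interval of its log2 fold change for Ddx41 heterozygosity with Trp53+/+ ran from -0.72 to 1.33, which is the widest of any member in that comparison. Its values for Ddx41 heterozygosity were 0.31 (SE 0.48) with Trp53+/+, 0.02 (SE 0.47) with Trp53+/- and 0.16 (SE 0.33) over both, with a difference of -0.29 (SE 0.68) between the Trp53 genotypes. For Trp53 heterozygosity they were 0.29 (SE 0.43) with Ddx41+/+, 0.0023 (SE 0.55) with Ddx41+/- and 0.18 (SE 0.33) over both. All of these changed sign when 1 mouse or another was left out. Set beside the summed B cell markers, the mouse with the lowest Bcl2 value also had the lowest sum, 210 CPM, while the mouse with the highest sum, 510 CPM, had 2.03 CPM of Bcl2.

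**Figure D3:**
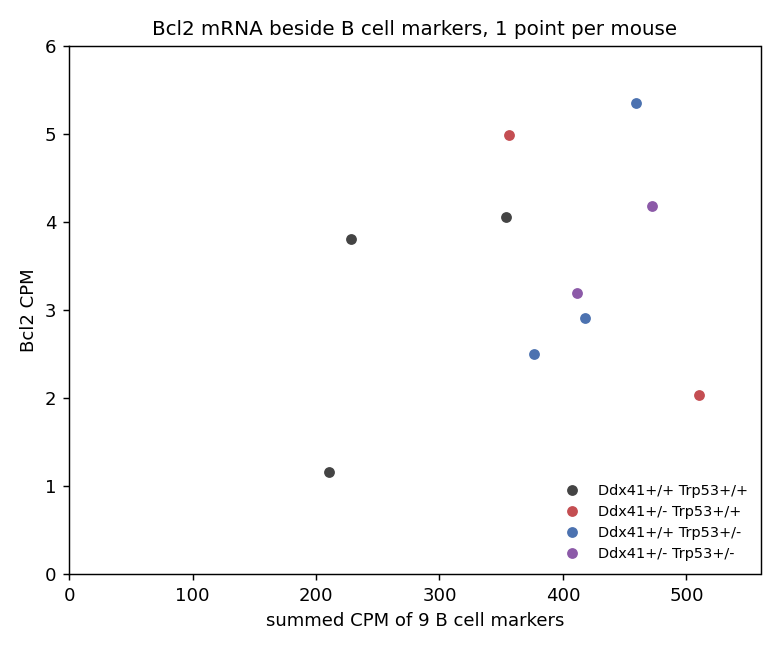
Bcl2 level (CPM, vertical axis) beside the summed level of 9 B cell markers (CPM, horizontal axis), 1 point per mouse, coloured by genotype. The 3 Ddx41+/+Trp53+/+ mice lie at 210 to 354 CPM of the markers and the other genotypes at 357 to 510 CPM, while Bcl2 ranged from 1.17 to 5.36 CPM with overlap between all genotypes.

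The effectors are the genes whose products open the outer membrane. Bax was at 28.3, 27.7 and 25.5 CPM in the Ddx41+/+Trp53+/+ mice, 30.9 and 39.1 CPM in the Ddx41+/-Trp53+/+ mice, 26.1, 24.5 and 22.9 CPM in the Ddx41+/+Trp53+/- mice, and 28.1 and 26.4 CPM in the Ddx41+/-Trp53+/- mice. In either Trp53 genotype, both Ddx41+/- mice were above all Ddx41+/+ mice. The log2 fold change for Ddx41 heterozygosity was 0.36 (SE 0.13) with Trp53+/+, with an unadjusted p of 0.0144 and an adjusted p of 0.345, and 0.16 (SE 0.13, unadjusted p = 0.247) with Trp53+/-. Without Ddx41+/-Trp53+/+ replicate 34 the first of these values was 0.19. The difference between these effects was -0.20 (95% interval -0.59 to 0.19). Over both Trp53 genotypes the log2 fold change was 0.26 (SE 0.09, adjusted p = 0.436), and leaving out 1 Ddx41+/-Trp53+/+ mouse, replicate 34, brought it to 0.17.

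Between the Trp53 genotypes with Ddx41+/-, the log2 fold change of Bax was -0.35 (SE 0.14, adjusted p = 0.845), and both Ddx41+/-Trp53+/- mice lay below both Ddx41+/-Trp53+/+ mice. Without the same replicate 34 the value was -0.18. With Ddx41+/+ it was -0.15 (SE 0.12, adjusted p = 0.7498). Over both Ddx41 genotypes its log2 fold change for Trp53 heterozygosity was -0.23 (SE 0.09, adjusted p = 0.345), and the ranges of the 5 Trp53+/- and the 5 Trp53+/+ mice overlapped. Reads of Bax can also belong to Gm45808, an annotated gene on the same strand that has no row in the count table. It shares 11.7% of the 75-base stretches of Bax.

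Bak1 was at 56.7, 59.2 and 55.2 CPM in the Ddx41+/+Trp53+/+ mice, 64.8 and 63.9 CPM in the Ddx41+/-Trp53+/+ mice, 61.3, 47.7 and 53.5 CPM in the Ddx41+/+Trp53+/- mice, and 44.1 and 46.4 CPM in the Ddx41+/-Trp53+/- mice. The Ddx41+/-Trp53+/+ mice held the highest values of the series and the double heterozygotes the lowest. Ddx41 heterozygosity came with a log2 fold change of 0.17 (SE 0.11, adjusted p = 0.659) with Trp53+/+ and of -0.25 (SE 0.11) with Trp53+/-, where the unadjusted p was 0.0306 and the value without Ddx41+/+Trp53+/- replicate 22 was -0.16. The difference between these effects was -0.43 (95% interval -0.75 to -0.11, unadjusted p = 0.0118, adjusted p = 0.788).

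Bak1 also gave the smallest unadjusted p of any member. Between the Trp53 genotypes with Ddx41+/-, its log2 fold change was -0.51 (SE 0.12, 95% interval -0.76 to -0.26), with an unadjusted p of 0.000519 and an adjusted p of 0.137, and it ranked 45 among the 11846 genes by p. The call changed with the method, since the adjusted p was 0.0356 by DESeq2, 0.0498 in a fit of only the Ddx41+/- mice and 0.0198 with no filter on low counts, and over all alternatives it ran from 0.0198 to 0.842. With Ddx41+/+, the log2 fold change for Trp53 heterozygosity was -0.08 (95% interval -0.28 to 0.12). Over both genotypes of the other gene it was -0.04 (SE 0.09) for Ddx41 and -0.25 (SE 0.09, adjusted p = 0.285) for Trp53. The exons of Bak1 overlap Ggnbp1 on the opposite strand, which was at 0.116 to 0.791 CPM.

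The ratio of Bax to Bak1 counts within a mouse was 0.499, 0.467 and 0.461 in the Ddx41+/+Trp53+/+ mice, 0.477 and 0.612 in the Ddx41+/-Trp53+/+ mice, 0.426, 0.514 and 0.429 in the Ddx41+/+Trp53+/- mice, and 0.638 and 0.569 in the Ddx41+/-Trp53+/- mice. The double heterozygotes were above all 3 Ddx41+/+Trp53+/- mice, and with Trp53+/+ the Ddx41 genotypes overlapped.

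**Figure D4:**
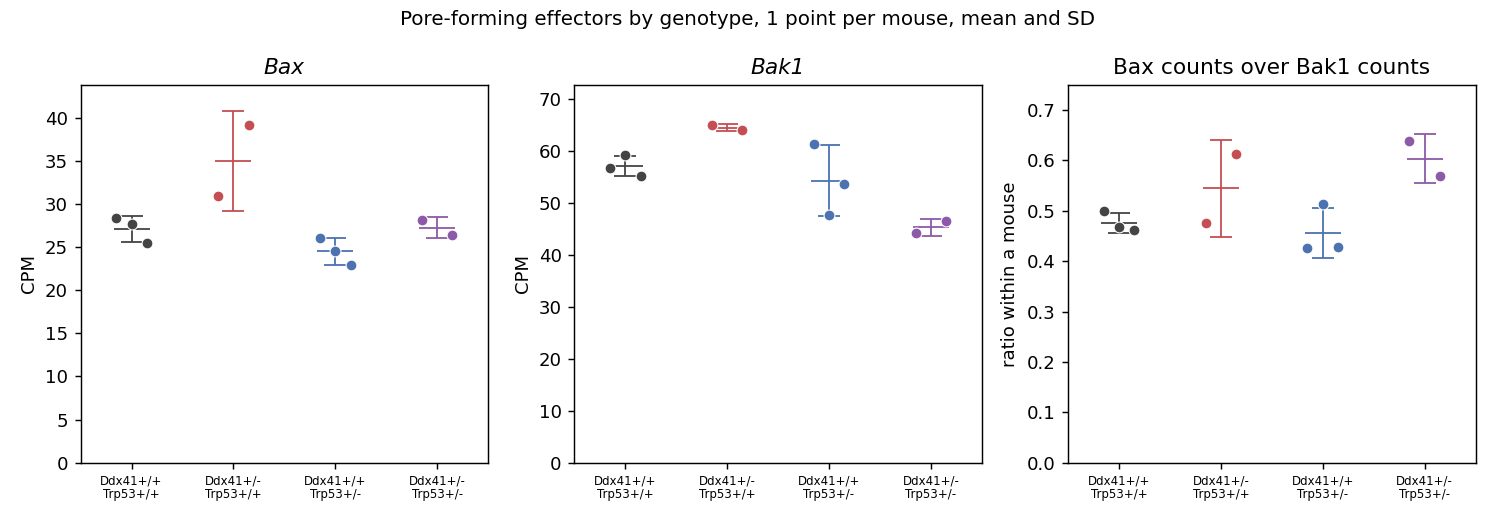
Bax and Bak1 levels (CPM) and the ratio of Bax to Bak1 counts by genotype, 1 point per mouse, with the mean and SD of each genotype. Bak1 was highest with Ddx41+/-Trp53+/+ (63.9 and 64.8 CPM) and lowest with Ddx41+/-Trp53+/- (44.1 and 46.4 CPM).

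Of the BH3-only genes, Bbc3 encodes PUMA, which binds all the main survival proteins. It was at 22.7, 33.9 and 24.6 CPM in the Ddx41+/+Trp53+/+ mice, 35.5 and 47.6 CPM in the Ddx41+/-Trp53+/+ mice, 28.4, 52.5 and 29.2 CPM in the Ddx41+/+Trp53+/- mice, and 46.01 and 57.0 CPM in the Ddx41+/-Trp53+/- mice. With Trp53+/+ both Ddx41+/- mice were above all Ddx41+/+ mice, whereas with Trp53+/- 1 Ddx41+/+ mouse, replicate 23, lay between the Ddx41+/- mice. The log2 fold change for Ddx41 heterozygosity was 0.60 (SE 0.23, adjusted p = 0.392) with Trp53+/+ and 0.48 (SE 0.23, unadjusted p = 0.0509) with Trp53+/-. The difference between these effects was -0.12, with a 95% interval of -0.82 to 0.58. The value with Trp53+/+ was 0.39 without Ddx41+/-Trp53+/+ replicate 34, and that with Trp53+/- was 0.84 without replicate 23.

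Over both Trp53 genotypes, the log2 fold change of Bbc3 for Ddx41 heterozygosity was 0.54 (SE 0.16, unadjusted p = 0.00381, adjusted p = 0.307). The call turned on replicate 23 of the Ddx41+/+Trp53+/- mice, without which the value was 0.71 with an adjusted p of 0.0181. It turned also on the filter, since with no filter on low counts Bbc3 was called here (adjusted p = 2.45e-06) and for Ddx41 heterozygosity with Trp53+/+ (adjusted p = 0.000964). Over all alternatives the adjusted p ran from 2.45e-06 to 0.611 and from 0.000964 to 0.819 in these comparisons. For Trp53 heterozygosity with Ddx41+/+, the log2 fold change of 0.44 (SE 0.21, adjusted p = 0.529) dropped to 0.09 without the same mouse. Over both Ddx41 genotypes, that for Trp53 heterozygosity was 0.39 (SE 0.16, adjusted p = 0.362), with the higher mean in the Trp53+/- mice, and 0.20 without replicate 23. With Ddx41+/- it was 0.32 (SE 0.25, adjusted p = 0.958), and 0.12 to 0.54 when each mouse was left out.

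Pmaip1 encodes NOXA, which binds mainly MCL-1, and lies at chr18:66458533-66465565 on the plus strand. It was at 5.48, 4.37 and 3.25 CPM in the Ddx41+/+Trp53+/+ mice, 7.30 and 6.22 CPM in the Ddx41+/-Trp53+/+ mice, 4.50, 6.12 and 5.996 CPM in the Ddx41+/+Trp53+/- mice, and 9.41 and 6.79 CPM in the Ddx41+/-Trp53+/- mice. All 4 Ddx41+/- mice (lowest 6.22 CPM) were above all 6 Ddx41+/+ mice (highest 6.12 CPM). The gap between these values was smaller than the 10.7% variation that counting alone would give. How many of all genes separated all Ddx41+/- from all Ddx41+/+ mice, as Pmaip1 did, was not counted. Together with Bax, it was 1 of the 2 members that were higher in the Ddx41+/- mice without overlap within each Trp53 genotype, as were 1.81% of all genes.

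The log2 fold change of Pmaip1 for Ddx41 heterozygosity was 0.63 (SE 0.26, adjusted p = 0.444) with Trp53+/+ and 0.53 (SE 0.25, unadjusted p = 0.0521) with Trp53+/-, and the latter was 0.28 without Ddx41+/-Trp53+/- replicate 46. The difference between these effects was -0.10 (SE 0.37). Over both Trp53 genotypes it was 0.58 (SE 0.18, unadjusted p = 0.00464, adjusted p = 0.32), and 0.49 to 0.69 when each mouse was left out in turn. For Trp53 heterozygosity over both Ddx41 genotypes the log2 fold change was 0.30 (95% interval -0.07 to 0.68). It was 0.34 (SE 0.24) with Ddx41+/+, and 0.18 to 0.54 when each mouse was left out, and 0.25 (SE 0.28) with Ddx41+/-.

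Bcl2l11 encodes BIM, which binds all the main survival proteins and is repressed at the protein level by survival signals. It was at 28.5, 27.7 and 29.5 CPM in the Ddx41+/+Trp53+/+ mice, 26.3 and 28.8 CPM in the Ddx41+/-Trp53+/+ mice, 28.9, 28.7 and 26.8 CPM in the Ddx41+/+Trp53+/- mice, and 26.6 and 28.0 CPM in the Ddx41+/-Trp53+/- mice. All 10 mice lay within 26.3 to 29.5 CPM, and the groups overlapped in every comparison. The 95% interval of its log2 fold change was -0.30 to 0.19 for Ddx41 heterozygosity with Trp53+/+ and -0.29 to 0.20 with Trp53+/-, and for Trp53 heterozygosity it was -0.24 to 0.20 with Ddx41+/+ and -0.28 to 0.26 with Ddx41+/-. Over both genotypes of the other gene the value was -0.05 (SE 0.08) for Ddx41 and -0.02 (SE 0.08) for Trp53, and the difference between the Ddx41 effects was 0.01 (SE 0.16).

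Bid, whose protein is cut by caspase-8 and then carries the death receptor signal to mitochondria, was at 24.05, 15.2 and 18.9 CPM in the Ddx41+/+Trp53+/+ mice, 14.6 and 14.99 CPM in the Ddx41+/-Trp53+/+ mice, 14.999, 17.8 and 13.4 CPM in the Ddx41+/+Trp53+/- mice, and 15.1 and 13.8 CPM in the Ddx41+/-Trp53+/- mice. The high values belonged to the Ddx41+/+Trp53+/+ group, which also had the widest spread, and its lowest mouse stood just above the Ddx41+/-Trp53+/+ mice. The log2 fold change for Ddx41 heterozygosity was -0.39 (SE 0.19, adjusted p = 0.544) with Trp53+/+ and -0.09 (SE 0.19) with Trp53+/-, a difference of 0.30 (SE 0.27, and 0.11 to 0.46 when each mouse was left out). Without Ddx41+/+Trp53+/+ replicate 10, its highest mouse, the value with Trp53+/+ was -0.20. For Trp53 heterozygosity it was -0.33 (SE 0.17, adjusted p = 0.560) with Ddx41+/+, which was -0.14 without the same mouse, and -0.03 (SE 0.21) with Ddx41+/-. The values over both genotypes of the other gene were -0.24 (SE 0.14) for Ddx41 and -0.22 (SE 0.13) for Trp53. The exons of Bid overlap those of Bcl2l13 on the opposite strand, which was at 247 to 286 CPM, and how the counting treated strand is not given in the sources used here.

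Bad, whose protein is held inactive by survival kinases and binds BCL-2 and BCL-XL, was at 9.65, 10.1 and 5.33 CPM in the Ddx41+/+Trp53+/+ mice, 9.67 and 9.02 CPM in the Ddx41+/-Trp53+/+ mice, 5.60, 6.37 and 6.58 CPM in the Ddx41+/+Trp53+/- mice, and 6.51 and 7.79 CPM in the Ddx41+/-Trp53+/- mice. The Trp53+/- mice were at 5.60 to 7.79 CPM, and of the Trp53+/+ mice all but 1, at 5.33 CPM, were above that range. Over both Ddx41 genotypes the log2 fold change for Trp53 heterozygosity was -0.42 (SE 0.17, unadjusted p = 0.0241, adjusted p = 0.362). It was -0.44 (SE 0.22) with Ddx41+/+, and -0.67 to -0.28 when each mouse was left out, and -0.39 (SE 0.27) with Ddx41+/-. For Ddx41 heterozygosity Bad stood at 0.16 (SE 0.25) with Trp53+/+, 0.20 (SE 0.25) with Trp53+/- and 0.18 (SE 0.17) over both, and the effects with Trp53+/- and Trp53+/+ differed by 0.05 (SE 0.35). Its exons overlap Gpr137 on the opposite strand, which was at 2.07 to 4.62 CPM.

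**Figure D5:**
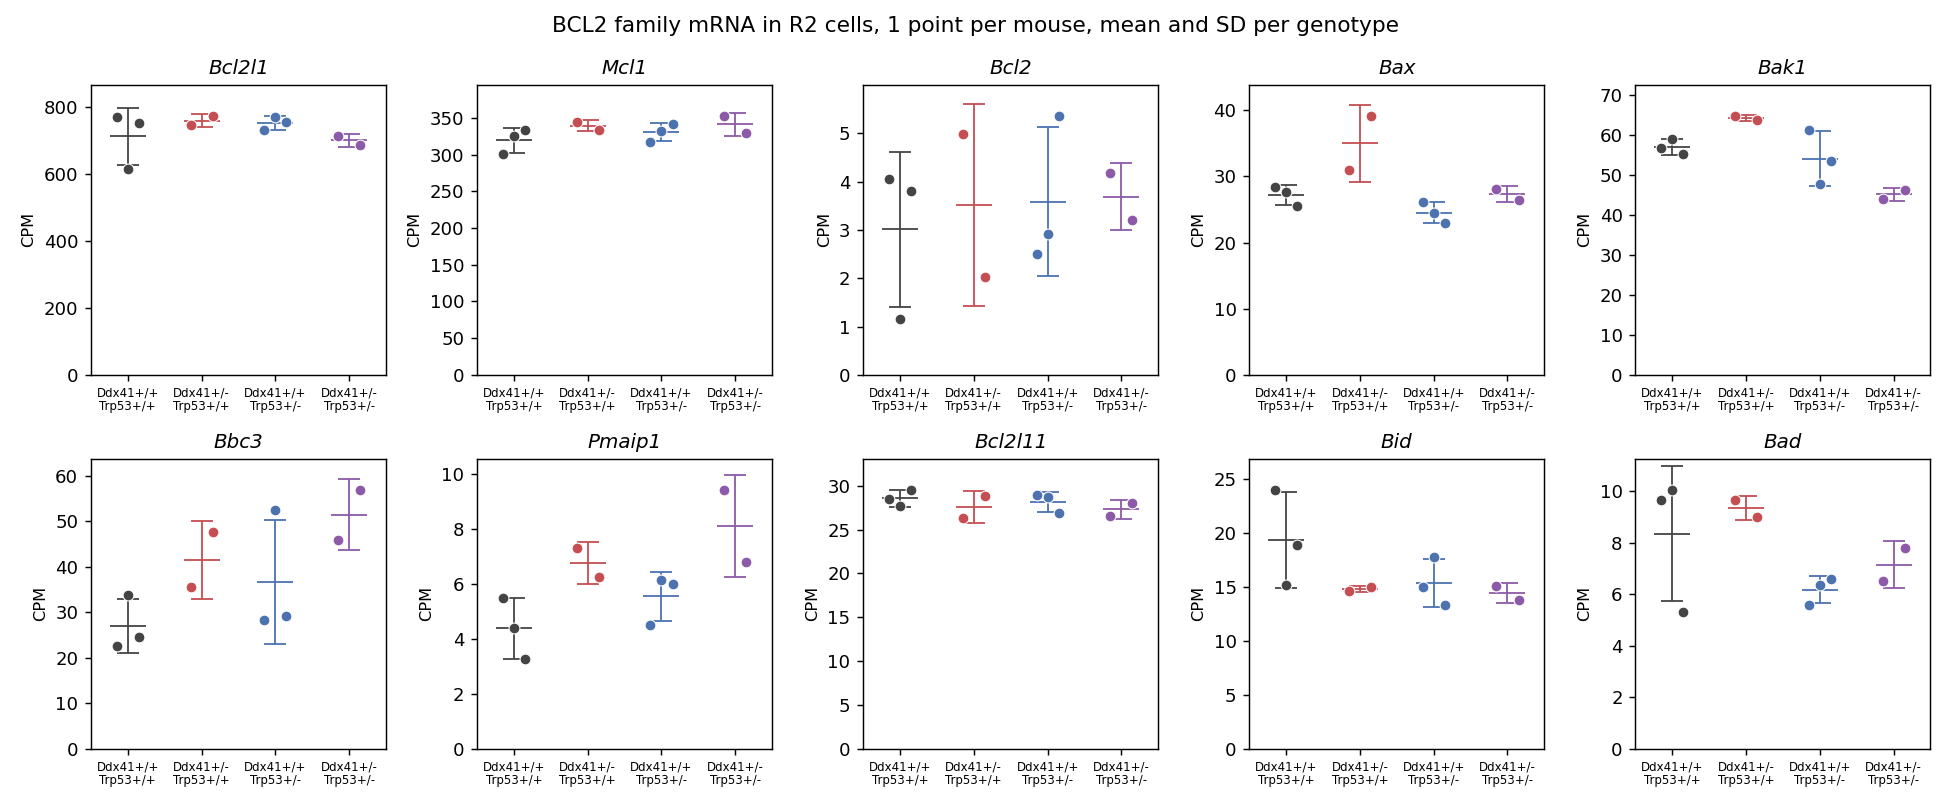
CPM of the 10 members by genotype, 1 panel per gene, 1 point per mouse, with the mean and SD of each genotype and axes that start at 0. Pmaip1 is higher in the 4 Ddx41+/- mice (6.22 to 9.41 CPM) than in the 6 Ddx41+/+ mice (3.25 to 6.12 CPM), and Bcl2l11 is level across all mice (26.3 to 29.5 CPM). The gap between the Pmaip1 ranges is smaller than the variation of Pmaip1 from counting.

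Survival and death genes were also compared within each mouse. There were 33.98, 18.2 and 30.6 counts of Bcl2l1 per count of Bbc3 in the Ddx41+/+Trp53+/+ mice, 21.0 and 16.3 in the Ddx41+/-Trp53+/+ mice, 25.8, 14.7 and 25.9 in the Ddx41+/+Trp53+/- mice, and 15.6 and 12.1 in the Ddx41+/-Trp53+/- mice. The ratio was lowest in a double heterozygote, and the Ddx41 genotypes overlapped in both Trp53 backgrounds. Counts of Mcl1 per count of Pmaip1 averaged 77.2 (SD 23.9, n = 3) with Ddx41+/+Trp53+/+, 50.4 (SD 4.60, n = 2) with Ddx41+/-Trp53+/+, 60.6 (SD 8.63, n = 3) with Ddx41+/+Trp53+/- and 43.0 (SD 7.88, n = 2) with Ddx41+/-Trp53+/-. This ratio was lower in the Ddx41+/- mice of either Trp53 background without overlap. The highest Ddx41+/- and lowest Ddx41+/+ values were 53.7 and 54.8 with Trp53+/+, and 48.6 and 54.3 with Trp53+/-. Pmaip1 alone also separated these groups, and how many other gene pairs do so was not counted. These ratios carry the gene lengths and are comparable only between mice.

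The remaining BCL2 relatives were mostly low. Of 16 listed, 11 passed the filter, and 0 were called in any comparison by edgeR or by DESeq2, with at most 1 at an unadjusted p below 0.05 in edgeR. Bnip3l, which removes mitochondria from maturing red cells, was the exception in level at 211 CPM per kilobase (SD 13.03, n = 10), above Bcl2l1, and Bcl2l13 stood at 29.6 (SD 1.39). Bcl2a1c, Bcl2l10 and Hrk were listed at 0 in every library. The smallest unadjusted p of the list was that of Bcl2a1a for Trp53 heterozygosity over both Ddx41 genotypes (0.00454, log2 fold change -1.48, adjusted p = 0.198), and its near-identical copies Bcl2a1b and Bcl2a1d can share its reads.

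Downstream of the pore, 0 of the 16 genes of the caspase cascade and 0 of 7 genes of the mitochondrial outer membrane and its dynamics were called by edgeR or DESeq2 in any of the comparisons. Caspase genes with an unadjusted p below 0.05 were most numerous for Trp53 heterozygosity with Ddx41+/+, where 2 were higher and 3 lower, and the membrane genes never had more than 1. The gene with the smallest unadjusted p among the caspase genes was Birc3, an inhibitor of apoptosis, for Trp53 heterozygosity over both Ddx41 genotypes (log2 fold change 0.34, adjusted p = 0.236). For Ddx41 heterozygosity with Trp53+/+ it was Casp6, an executioner caspase, at 0.34 (adjusted p = 0.641). Among the membrane genes it was Vdac2, a channel that holds BAK at the membrane, for Trp53 heterozygosity over both Ddx41 genotypes (log2 fold change -0.15, adjusted p = 0.394).

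Of 16 other p53 targets, 14 were tested, and Cdkn1a and Ccng1 changed. Cdkn1a, the cell cycle inhibitor p21, was at 6.75, 6.71 and 7.68 CPM in the Ddx41+/+Trp53+/+ mice, 16.6 and 15.6 CPM in the Ddx41+/-Trp53+/+ mice, 4.40, 6.55 and 3.84 CPM in the Ddx41+/+Trp53+/- mice, and 5.87 and 4.99 CPM in the Ddx41+/-Trp53+/- mice. It rose with Ddx41 heterozygosity in the Trp53+/+ mice by 1.20 on the log2 scale (SE 0.22, adjusted p = 0.0153), where Bax, Bbc3 and Pmaip1 stood at 0.36, 0.60 and 0.63 and did not pass. Between the Trp53 genotypes with Ddx41+/- it fell by 1.57 (SE 0.25, adjusted p = 0.00973), and there Bax, Bbc3 and Pmaip1 stood at -0.35, 0.32 and 0.25. By edgeR it was the only call among the 14 tested targets in either of these comparisons, and DESeq2 called Plk2, a kinase induced by p53, beside it in the first. The difference between the Ddx41 effects on Cdkn1a in the Trp53 genotypes was -1.07 (SE 0.33, adjusted p = 0.672 by edgeR) and was not called. For Ddx41 heterozygosity with Trp53+/-, 0 of the targets were called by either tool. Ccng1, cyclin G1, fell by 0.57 (SE 0.11, adjusted p = 0.0212) with Trp53 heterozygosity over both Ddx41 genotypes, where Bax was at -0.23 and Bbc3 at 0.39. DESeq2 called Cdkn1a there too, and Ccng1 also for Trp53 heterozygosity with Ddx41+/+ (adjusted p = 0.0119). Plk2 was called by DESeq2 for Ddx41 heterozygosity over both Trp53 genotypes as well, with an adjusted p of 0.0158 against 0.154 in edgeR (log2 fold change 0.81).

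Of the 14 genes of survival signalling, Cish, a feedback inhibitor induced by STAT5, was the only one called. It fell with Trp53 heterozygosity by 0.98 on the log2 scale (SE 0.17, adjusted p = 0.00931) with Ddx41+/+ and by 0.90 (SE 0.13, adjusted p = 0.00358) over both Ddx41 genotypes, and it was at 27.7 to 50.6 CPM in the Trp53+/+ mice and 17.9 to 22.4 CPM in the Trp53+/- mice. Bcl2l1, which STAT5 can also induce, had log2 fold changes of 0.08 (95% interval -0.08 to 0.24) and 0.00079 (-0.13 to 0.13) in these comparisons. Per kilobase, the erythropoietin receptor Epor averaged 179.7 CPM (SD 11.4), Gata1 173 CPM (SD 9.20) and Jak2 46.2 CPM (SD 3.26) over the 10 mice, and 0 of these genes were called in any comparison by either tool.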

How the data were processed

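Marrow cells in the CD71+Ter119+ gate were profiled from 10 mice of 4 genotypes, each library being 1 mouse. The deposited table holds raw counts, with 1 row per gene symbol and no normalization by the authors. Libraries came from a stranded TruSeq kit for mRNA, per the labels. The paper names a TruSeq RNA kit with polyA selection and does not describe it as stranded. Reads were mapped to mm10, and the submitters' processing notes name FastQC 0.11.7, HISAT2 2.0.5 and featureCounts 1.5.2. The annotation, the strand setting and the handling of reads that match several genes are not given for the counting in the sources used here. Mice 35 and 45, which the table names as removed, were not used here.

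The fit used edgeR 4.0.16 in R 4.3.3, with its filter on low counts by genotype (12575 genes removed), TMM scaling and a quasi-likelihood model with 1 mean per genotype over all 10 libraries. Additive models gave the effect of each gene over both genotypes of the other. Tests were two-sided, and p-values were adjusted by Benjamini-Hochberg over 11846 genes. Intervals are 95% intervals of the fit. Levels per kilobase used merged exon lengths of GENCODE M21, and promoter windows came from RefSeq. Groups were called not overlapping when all mice of one lay above all mice of the other, within each genotype of the second gene for the additive models. Pairs of mice of the same genotype differed by a chi-square of 6.75 to 17.3 per gene, more than sampling noise, so each was counted as 1 replicate. The fits were also run on data simulated from their own means and dispersions, which cannot show that the model suits these libraries.

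The 10 members and all gene lists were chosen with earlier results of these data known. All members were named, and from the lists of other BCL2 relatives, the caspase cascade, the outer membrane, other p53 targets and survival signalling the called genes, or, in a list with none, the gene with the smallest p. Called cell type markers are outside that rule and were chosen after their values were seen. Alternatives were DESeq2 1.42.0 with its own test or only its size factors, no filter, at least 10 counts in every library, a fold change over 1.5 as a further condition, fits of only the genotypes compared, and leaving out each mouse. Reads were amplified by PCR and carry no molecular identifiers, so the variation given for counting covers counting error alone.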

Additional observations from a re-analysis of the deposited data

Results flagged for a closer look

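Bak1 is listed because its Ddx41 genotypes did not overlap in either Trp53 genotype, with opposite order. It passed the test in neither, with log2 fold changes of 0.17 (adjusted p = 0.659) with Trp53+/+ and -0.25 (adjusted p = 0.9997) with Trp53+/-. With Trp53+/+, both Ddx41+/- mice (64.8 and 63.9 CPM) were above all 3 Ddx41+/+ mice (55.2 to 59.2 CPM). With Trp53+/-, both Ddx41+/- mice (44.1 and 46.4 CPM) were below all 3 Ddx41+/+ mice (47.7 to 61.3 CPM). The difference between the effects was -0.43 on the log2 scale in edgeR's quasi-likelihood test (SE 0.15, adjusted p = 0.788), and -0.51 to -0.34 when each mouse was left out in turn.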

How the results depend on the processing

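No paired analysis was possible because the genotypes share no replicate numbers. Of 1020 recomputed log2 fold changes of members, 949 kept their direction and their side of the threshold, 8 passed the threshold that they had missed and 63 changed sign. With no filter on low counts, 1 member was called in place of 0 in 5 comparisons, namely Bbc3 for Ddx41 heterozygosity with Trp53+/+ (adjusted p = 0.000964) and over both Trp53 genotypes (2.45e-06), Bbc3 for Trp53 heterozygosity with Ddx41+/+ (0.0141) and over both Ddx41 genotypes (0.00178), and Bak1 for Trp53 heterozygosity with Ddx41+/- (0.0198). For that last comparison 1 member, Bak1, was also called by DESeq2 (0.0356) and in a fit of only the 2 genotypes compared (0.0498). Leaving out each mouse gave 0 to 1 called for Ddx41 heterozygosity over both Trp53 genotypes, the 1 being Bbc3 without Ddx41+/+Trp53+/- replicate 23 (0.0181), and 0 in all other comparisons. These adjusted p-values are those of edgeR's quasi-likelihood test except where DESeq2 is named, and the cause was not tested.

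The sign changes touched 27 member values, with no unadjusted p below 0.211. Bcl2 moved from 0.0023 to -0.015 for Trp53 heterozygosity with Ddx41+/- when only the 2 genotypes were fitted, and Bcl2l1 from -0.0036 to 0.0065 for Ddx41 heterozygosity over both Trp53 genotypes when at least 10 counts in every library were required. The other 61 came from leaving out a mouse, and the log2 fold changes that crossed 0 are given as the lowest to the highest value, with the value from all mice in parentheses. For Ddx41 heterozygosity with Trp53+/+ these were Bcl2 -0.55 to 0.74 (0.31), Bcl2l11 -0.12 to 0.0097 (-0.056) and Bad -0.072 to 0.32 (0.16). For Ddx41 heterozygosity with Trp53+/- these were Bcl2 -0.19 to 0.44 (0.017), Mcl1 -0.0014 to 0.10 (0.045) and Bid -0.19 to 0.030 (-0.092). For Trp53 heterozygosity with Ddx41+/+ these were Bcl2 -0.13 to 0.60 (0.29), Bcl2l1 -0.017 to 0.14 (0.078), Bak1 -0.17 to 0.0050 (-0.080) and Bcl2l11 -0.044 to 0.014 (-0.021). For Trp53 heterozygosity with Ddx41+/- these were Bcl2 -0.43 to 0.87 (0.0023), Mcl1 -0.043 to 0.063 (0.0081), Pmaip1 -0.0078 to 0.47 (0.25), Bcl2l11 -0.070 to 0.056 (-0.0088) and Bid -0.10 to 0.039 (-0.032). For the difference between the Ddx41 effects these were Bcl2 -0.72 to 0.58 (-0.29), Mcl1 -0.088 to 0.018 (-0.042), Bbc3 -0.32 to 0.23 (-0.12), Pmaip1 -0.35 to 0.13 (-0.10), Bcl2l11 -0.048 to 0.081 (0.012) and Bad -0.10 to 0.27 (0.047). For Ddx41 heterozygosity over both Trp53 genotypes these were Bcl2 -0.15 to 0.36 (0.16), Bcl2l1 -0.049 to 0.034 (-0.0036) and Bak1 -0.093 to 0.028 (-0.037). For Trp53 heterozygosity over both Ddx41 genotypes these were Bcl2 -0.066 to 0.43 (0.18), Bcl2l1 -0.059 to 0.027 (0.00079) and Bcl2l11 -0.036 to 0.0037 (-0.016). Leaving out 1 mouse leaves some genotypes with a single mouse, whose spread is then assumed to be that of the others.

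The genes called among all those tested by edgeR as described, by DESeq2 and by edgeR with no filter were 74, 165 and 333 for Ddx41 heterozygosity with Trp53+/+, 117, 202 and 366 for Trp53 heterozygosity with Ddx41+/+, 21, 46 and 97 for Trp53 heterozygosity with Ddx41+/-, 8, 29 and 107 for the difference between the Ddx41 effects, 17, 73 and 251 for Ddx41 heterozygosity over both Trp53 genotypes, and 52, 174 and 361 for Trp53 heterozygosity over both Ddx41 genotypes. For Ddx41 heterozygosity with Trp53+/-, 5 genes were called, against 62 with no filter and 2 with at least 10 counts in every library, which gave 10 for Ddx41 heterozygosity over both Trp53 genotypes. Fits of only the genotypes compared called 70 genes for Trp53 heterozygosity with Ddx41+/+ and 47 with Ddx41+/-. Leaving out 1 mouse moved the first count of 74 to 13 without Ddx41+/-Trp53+/+ replicate 34, 26 without replicate 32 of that genotype and 46 without Ddx41+/+Trp53+/+ replicate 11. It moved 117 to 35 without Ddx41+/+Trp53+/- replicate 24, 21 to 13 without Ddx41+/-Trp53+/+ replicate 34, and 5 to 10, 1 and 2 without Ddx41+/+Trp53+/- replicate 23 and Ddx41+/-Trp53+/- replicates 46 and 47. The 17 genes for Ddx41 heterozygosity over both Trp53 genotypes became 2 (without replicate 10 or 34), 3 (32), 8 (11), 9 (46), 10 (12), 11 (22) and 58 (23), and the 52 for Trp53 heterozygosity over both Ddx41 genotypes became 31 (10 or 23), 30 (24) and 109 (34). The shares of all genes set beside the members' counts move with them. The low counts of Bcl2 (16 to 92 per library) and Pmaip1 (45 to 162) and 2 mice per Ddx41+/- genotype limit the precision of the members' values.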

Other observations

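For each member the tested gene with the most similar profile was found by Pearson's r of log2 CPM over the 10 libraries, among 11845 other genes. The libraries come from 4 genotypes and differ in depth, and each r is the highest of many and carries no p. The closest profiles were those of Il16 to Bcl2 (r = 0.930), Isg20 to Bcl2l1 (0.941), Mex3d to Bax (0.927), Gorasp1 to Bak1 (0.954), Ash1l to Bbc3 (0.977), Ciart to Pmaip1 (0.974), Tcf25 to Bcl2l11 (0.910), Snhg10 to Bid (0.910) and Trmt44 to Bad (0.925). The gene closest to Mcl1 was Efnb1 (0.958), which was barely detected at 0 to 0.871 CPM.

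Among the members themselves the strongest relations over the same 10 libraries were those of Pmaip1 with Bcl2l11 (r = -0.693), Mcl1 with Bid (-0.664), Bbc3 with Pmaip1 (0.622) and Bcl2 with Bcl2l1 (0.614). These were picked as the largest of all pairs of members, pool all genotypes and carry no p. Bcl2l11 varied by 3.98% over the mice, no more than the 4.99% that counting alone would give. Pmaip1 rested on 45 to 162 counts per library.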
